A study of Cavia porcellus with 34 samples.

Results

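Histone-modifying enzymes and chromatin remodellers were followed in the paraventricular nucleus (PVN) of the hypothalamus of guinea pigs whose ancestor was treated with synthetic glucocorticoid during pregnancy. Members were taken by gene symbol: every gene of the deposited tables named as a lysine methyltransferase (KMT, SETD, SETDB, SUV, EZH, EHMT), an arginine methyltransferase (PRMT), a lysine acetyltransferase (KAT), a lysine demethylase (KDM), a zinc-dependent histone deacetylase (HDAC), a sirtuin (SIRT), a SMARC remodelling subunit, an ARID protein or a CHD remodeller. This gave 94 genes in 9 families, of 12592 genes listed in any table. All 94 were listed in F1, 92 in F2 (without HDAC3 and SIRT5) and 90 in F3 (without HDAC3, SIRT5, SIRT7 and SMARCA4). Every listed member passed the filter on low values, a mean of at least 10 normalised counts.

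These families set how tightly DNA is packed around histones. Methyltransferases and acetyltransferases write marks on histone tails, and demethylases and deacetylases remove them. Most SMARC and CHD proteins belong to machines that use ATP to slide, eject or exchange nucleosomes. Of the ARID proteins, which were grouped by symbol, ARID1A is a subunit of such a machine. In the brain, many of them are known for roles in neuronal development and in transcription that follows neuronal activity. The PVN holds the neurons that release corticotrophin-releasing hormone, vasopressin and oxytocin and so drives the endocrine stress response.

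The animals were female Dunkin-Hartley guinea pigs of the paternal line, sampled on postnatal day 40. Pregnant F0 dams had received 3 courses of betamethasone at 1 mg/kg (sGC) or saline (Veh). F1 is their offspring, exposed in utero, F2 was fathered by F1 males and F3 by F2 males. F1 and F2 had 5 Veh and 5 sGC animals each, and F3 had 6 and 6, with 2 of the F3 sGC animals from a second sequencing batch. That batch also held second libraries of the Veh animals SGM5 and SGM9, which are not analysed here. Tissue was a hypothalamic micropunch that can hold regions next to the PVN. Per-animal totals ran from 15573233 to 21935501 normalised counts in F1 and F2 and from 18692048 to 18977539 in F3. The 9 marker genes of PVN neuroendocrine neurons, including vasopressin (AVP) and oxytocin (OXT), were above 0 in every animal.

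In F1, 5 of the 94 members were higher in sGC than in Veh and none was lower (limma, Benjamini-Hochberg adjusted over 11874 genes). Among all genes 0.606% were called higher and 0.0505% lower. The 5 members were KAT6A, KDM6B, CHD2, KMT2E and KMT2C, one acetyltransferase, one demethylase, one remodeller and 2 members of the KMT2 family. The same 5 were the members whose sGC and Veh animals did not overlap, against 1.79% of all genes without overlap and higher in sGC and 0.253% without overlap and lower.

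KAT6A, a MYST-family acetyltransferase of histone H3, read 767, 874, 644, 621 and 480 normalised counts in the F1 Veh animals and 1350, 1307, 1217, 1243 and 1060 in the F1 sGC animals. The lowest sGC animal was above the highest Veh animal. The group means were 677 ± 149.95 and 1235 ± 111 (SD, n = 5 each), 0.89 ± 0.14 (SE) apart on the log2 scale (adjusted p = 0.00629 in limma).

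KDM6B, which removes methyl groups from H3K27 and so lifts a repressive mark, read 194, 213, 172, 170 and 136 in Veh and 327, 331, 375, 354 and 269 in sGC. With 0.91 ± 0.15 on the log2 scale (adjusted p = 0.00769, limma) it had the highest value among the members. CHD2, an ATP-dependent remodeller of the chromodomain family, read 452, 519, 401, 391 and 315 in Veh and 746, 723, 777, 719 and 651 in sGC, a change of 0.81 ± 0.14 on the log2 scale (limma adjusted p = 0.00769). In both genes every sGC animal exceeded every Veh animal.

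KMT2E and KMT2C belong to the mixed-lineage leukaemia family. KMT2C is a catalytic subunit of an H3K4 methyltransferase complex that acts at enhancers, whereas KMT2E binds methylated H3K4 and has little known catalytic activity. KMT2E read 1003, 1217, 963, 881 and 865 in Veh and 1579, 1576, 1529, 1428 and 1307 in sGC, 0.60 ± 0.12 apart on the log2 scale (adjusted p = 0.0195, limma). KMT2C read 2535, 2875, 2393, 2057 and 2272 in Veh and 3396, 3831, 3181, 3598 and 3183 in sGC, 0.51 ± 0.12 apart (adjusted p = 0.0420, limma). KAT6A, KDM6B and CHD2 stayed called whichever F1 animal was left out, with adjusted p up to 0.0227, 0.0283 and 0.0283. KMT2E was not called without Veh SGM11, SGM15 or SGM19 (adjusted p up to 0.0745), and KMT2C without any of Veh SGM3, SGM11, SGM15 and SGM19 or sGC SGM4, SGM8 and SGM16 (up to 0.139).

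**Figure D1:**
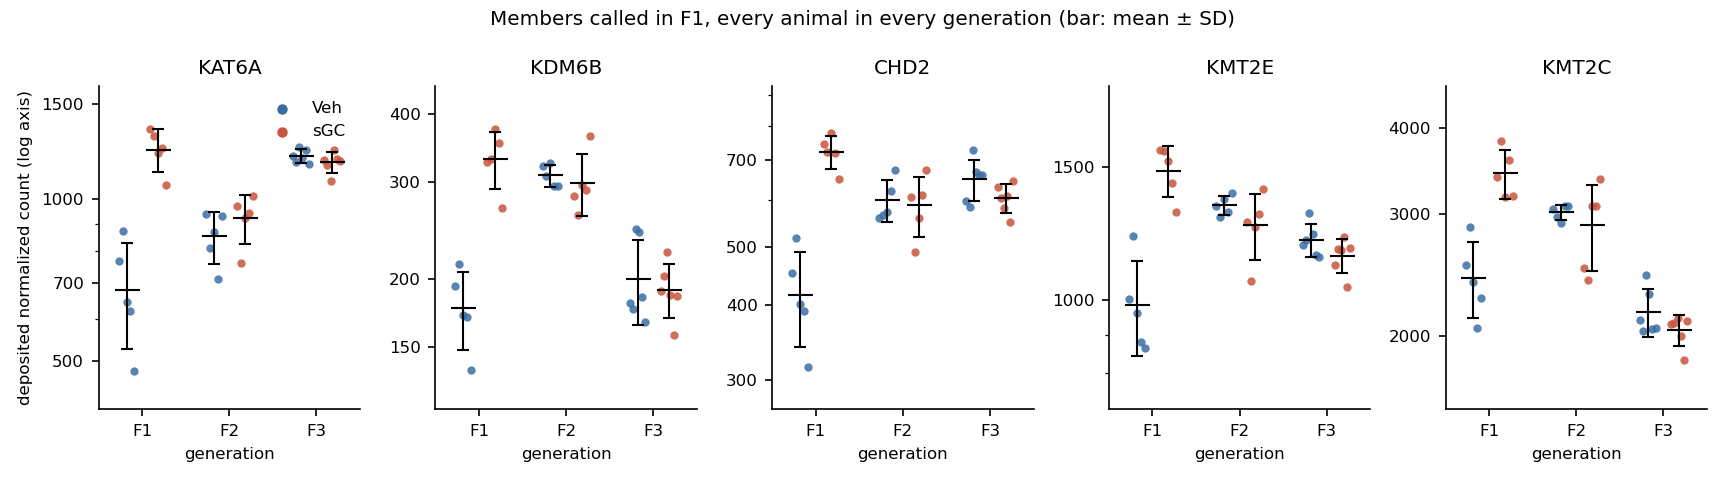
Normalised counts (log axis) of KAT6A, KDM6B, CHD2, KMT2E and KMT2C in every animal by generation, blue for Veh and red for sGC, with the group mean and SD as a bar. In F1 the sGC points lie above all Veh points in each of the 5 genes, for example 1060 to 1350 against 480 to 874 for KAT6A, and in F2 and F3 the points of both groups overlap. The 3 tables were normalised separately, so heights are comparable within a generation.

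The deposited F1 values still differed in scale between animals, and this spread entered every gene. Median-of-ratios size factors ran from 0.849 to 1.202 in F1, 0.877 to 1.078 in F2 and 0.994 to 1.009 in F3. Dividing by them lowered the median within-group SD of the members in F1 from 0.189 to 0.0875 on the log2 scale. The number of genes called in F1 then went from 78 (72 higher and 6 lower) to 2058 (1006 higher and 1052 lower), 8.47% and 8.86% of the genes tested. Of the 94 members, 23 were higher and 4 lower. The percentage of members called, 28.7%, stood beside 17.3% of all genes. Without overlap between the groups were 20 members higher and 3 lower, beside 7.07% and 7.16% of all genes. The 5 members above were among the 23 called higher, with adjusted p from 0.000113 to 0.000989. Without any one animal, 18 to 26 members were called on this scale and the 5 were called each time. Each family count below stands beside the 8.47% of all genes called higher and 8.86% called lower. The values in the next paragraphs are on the size-factor scale unless marked as deposited. Apart from the 5 members above, every gene given there as higher or lower was called on that scale only. Some names in them were chosen after their values were seen, so that every called member is accounted for.

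Among the 23 lysine methyltransferases, 8 were higher and 1 was lower in F1 sGC. All 5 KMT2 genes were in the higher group, KMT2E at 0.53 ± 0.04 (SE), KMT2C at 0.45 ± 0.05, KMT2A at 0.36 ± 0.06, KMT2B at 0.32 ± 0.04 and KMT2D at 0.26 ± 0.06 (log2 fold change). The other three higher genes were SETD5 at 0.34 ± 0.04, SETD2, which trimethylates H3K36, at 0.23 ± 0.05, and SETD1B, another H3K4 methyltransferase, at 0.20 ± 0.06. SETD3, an actin histidine methyltransferase despite its SET domain, was lower, at −0.13 ± 0.04 (adjusted p = 0.0306, limma). On the deposited scale KMT2A, KMT2B, KMT2D, SETD5, SETD2 and SETD1B had log2 fold changes of 0.27 to 0.43 and were not called. The members that methylate H3K9 or H3K27 gave no call: EHMT2, SUV39H1, SUV39H2, SETDB1, SETDB2, EZH1 and EZH2 lay between −0.11 and 0.34, with EZH2, at a mean of 29.5 counts, the highest.

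Of the 13 demethylases, 5 were higher and none was lower. Beside KDM6B at 0.84 ± 0.08, they were KDM3B, an H3K9 demethylase, at 0.25 ± 0.05, KDM2A, an H3K36 demethylase, at 0.25 ± 0.04, KDM5B, an H3K4 demethylase, at 0.16 ± 0.05, and KDM1A, which removes H3K4 mono- and dimethylation, at 0.16 ± 0.05. Of the 5, only KDM6B was called on the deposited scale, where KDM3B, KDM2A, KDM5B and KDM1A were at 0.31, 0.31, 0.22 and 0.22 with adjusted p from 0.237 to 0.489 (limma). KDM6A, the close relative of KDM6B, was at 0.05 ± 0.05 (adjusted p = 0.553, limma).

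Of the 6 acetyltransferases, 2 were higher, KAT6A at 0.83 ± 0.07 and its relative KAT6B at 0.34 ± 0.05. KAT6B was at 0.41 as deposited (limma adjusted p = 0.126). KAT2B, KAT5, KAT7 and KAT8 lay between −0.01 and 0.22 and were not called. Of the 11 deacetylases, 1 was higher and 1 lower, 18.2% beside 17.3% of all genes called in either direction. HDAC4, a class IIa enzyme that shuttles in and out of the nucleus, was higher at 0.24 ± 0.05 (limma adjusted p = 0.0137, and 0.2998 as deposited), and HDAC3, the catalytic subunit of the NCoR and SMRT corepressor complexes, was lower at −0.29 ± 0.06 (adjusted p = 0.00831). HDAC3 read 1297, 1457, 1217, 1186 and 1033 normalised counts in Veh and 1090, 1019, 1112, 1189 and 884 in sGC before scaling, with overlap, and the groups separated after it. Its change on the deposited scale was −0.22 ± 0.12 (adjusted p = 0.449). The 7 sirtuins gave no call and ranged from −0.15 to 0.30.

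The 8 CHD remodellers were all positive in F1 and 5 were called higher, CHD2 at 0.75 ± 0.06, CHD7 at 0.38 ± 0.06, CHD8 at 0.26 ± 0.04, CHD1 at 0.24 ± 0.06 and CHD6 at 0.20 ± 0.04. As deposited, CHD7, CHD8, CHD1 and CHD6 were at 0.44, 0.32, 0.31 and 0.27 and were not called (limma adjusted p from 0.1095 to 0.356). CHD3, CHD4 and CHD5, the ATPases of the NuRD complex, were at 0.17, 0.03 and 0.03 and were not called. Of the 11 SMARC members only SMARCC1, a core scaffold, was called (0.15 ± 0.04, limma adjusted p = 0.0350), and of the 7 ARID proteins only ARID1A, a subunit of the same complexes (0.19 ± 0.04, adjusted p = 0.00906). Beside these single calls, 8.47% of all genes were called higher and 8.86% lower. Their values as deposited were 0.22 and 0.25, with limma adjusted p of 0.494 and 0.383. The catalytic ATPases SMARCA2 and SMARCA4 were at 0.03 ± 0.07 and 0.13 ± 0.06.

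Of the 8 arginine methyltransferases, 7 had negative values and 2 were called lower, PRMT6, which methylates H3R2, at −0.29 ± 0.07 (limma adjusted p = 0.0185) and PRMT2 at −0.15 ± 0.05 (adjusted p = 0.0425). PRMT8, an enzyme of neuronal membranes, had the lowest value, −0.39 ± 0.22, and was not called (adjusted p = 0.253). The deposited-scale values of PRMT6 and PRMT2 were −0.22 ± 0.15 and −0.09 ± 0.12, with adjusted p of 0.552 and 0.812. By family median the order was CHD 0.22, KAT 0.12, lysine methyltransferases 0.07, demethylases 0.05, SMARC 0.03, sirtuins −0.01, ARID −0.02, HDAC −0.10 and PRMT −0.11, against 0.003339 over all genes. On the deposited scale PRMT8 was the lowest member too, at −0.33 ± 0.21. The next values are also as deposited, for members with a mean of at least 50 counts and no call on either scale. The lowest of the other families were ARID5A at −0.30 ± 0.25, SETD9 at −0.21 ± 0.20, KDM7A at −0.10 ± 0.21, SIRT5 at −0.09 ± 0.12 and SMARCD3, a neuron-enriched SWI/SNF subunit, at −0.09 ± 0.13. The highest of their families were ARID3B at 0.31 ± 0.17, SIRT1 at 0.15 ± 0.14 and PRMT9 at 0.15 ± 0.12. SIRT6, at a mean of 41.2 counts, was at 0.36 ± 0.24 as deposited. No test was made between families. The median of the members relative to all genes was also read per animal, on the deposited scale with each gene centred on its Veh mean. It ran from −0.0199 to 0.0136 in the F1 Veh animals and from 0.0339 to 0.0555 in the F1 sGC animals, without overlap. The centring places the Veh animals around 0, and no gene list outside the members was set beside these values.

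**Figure D2:**
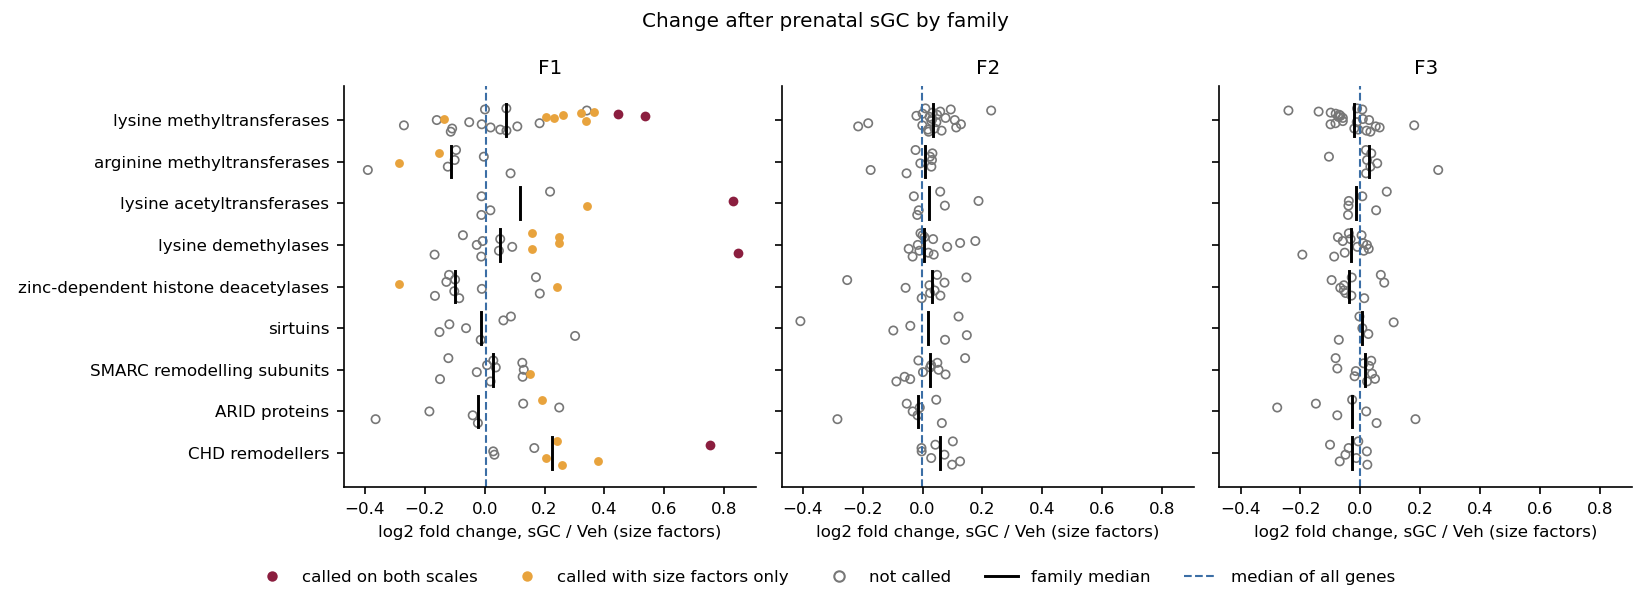
Log2 fold change of sGC over Veh for each member by family and generation, on the size-factor scale, with the family median as a black bar and the median of all genes as a dashed line. Dark red points were called on both scales, orange points with size factors only and open points on neither. Calls appear in F1 alone, 23 on the right and 4 on the left of 0, and CHD genes have the highest family median there (0.22). Without size factors the F1 calls are the 5 dark red points.

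Cell-type markers were also read in F1. The PVN neuroendocrine markers had negative values in 9 of 9 genes (median log2 fold change −0.70 as deposited), each with overlapping groups. Their summed level per animal was 100877 to 226859 normalised counts in Veh and 29219 to 197398 in sGC. The sums of sGC SGM12 and SGM16, 156892 and 197398, lay inside the Veh range, and those of SGM4, SGM8 and SGM20 (29219, 39205 and 52694) below it. Markers of other cells were mostly positive, with medians of 0.29 for neurons (8 of 11 positive), 0.27 for oligodendrocytes (11 of 11), 0.20 for astrocytes (9 of 10), 0.40 for microglia (6 of 7) and 0.39 for endothelial and mural cells (9 of 9). Of all genes 7572 of 11874 were positive. The oligodendrocyte sum was 77912 and 114588 in sGC SGM4 and SGM8. It was 41377 to 54334 in the other sGC animals and 42606 to 53627 in Veh. The endothelial and mural sum was 26004 and 17403 in SGM4 and SGM8, 11202 to 14572 in the other sGC animals and 9250 to 13547 in Veh. None of the genes in these 6 lists was called on the deposited scale. With size factors 1 PVN marker was called lower, 1 neuron marker higher and 1 lower, and 1 microglia marker higher. On that scale 8.47% of all genes were called higher and 8.86% lower. Markers of the thalamus and other neighbouring regions moved in both directions, from −2.39 for GBX2 to 1.9995 for NR5A1, and 6 of the 7 had an unadjusted p under 0.05. One of them, RORB, was called, with 998 to 1715 normalised counts in Veh and 1694 to 2833 in sGC, 0.69 ± 0.16 apart on the log2 scale (adjusted p = 0.0432, limma). The thalamic markers TCF7L2 and LHX9 were at −1.41 and −1.05. The summed level of these 7 markers was 2304 to 8105 in Veh and 2925 to 4137 in sGC. The part of all these markers in the F1 result of the members was not tested. In tissue punches fewer cells of a type and less RNA per cell cannot be told apart.

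In F2 no gene was called, on either scale (0% of 11965 genes, limma, with 1395 genes at an unadjusted p under 0.05 on the deposited scale). Of the 92 members, 4 had an unadjusted p under 0.05 (4.35%, against 11.7% of all genes). These were SIRT2, HDAC11, SETD7 and SETDB1, each with a negative value. The median of the members was −0.05, with 72 of 92 negative, beside −0.08 over all genes, and with size factors it was 0.03, with 59 of 92 positive, beside −0.00203.

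SIRT2, an NAD-dependent deacetylase that is abundant in myelin, had the lowest F2 value. It read 3151, 3866, 2896, 2466 and 2874 normalised counts in the F2 Veh animals and 2158, 1936, 2060, 2284 and 2393 in the F2 sGC animals. The groups did not overlap, and the fold change was −0.48 ± 0.11 on the log2 scale (adjusted p = 0.0768, limma). Without Veh SGM28, the Veh animal with the lowest SIRT2, the adjusted p was 0.0199. The other 9 of 10 omissions gave no call, with adjusted p up to 0.216 (limma). The value was weakest, at −0.39, without Veh SGM23.

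SETD7, a methyltransferase of H3K4 and of several non-histone proteins, was the other member without overlap in F2, beside 2.31% of all genes without overlap and lower and 0.0919% without overlap and higher. It read 5509, 5784, 5855, 6411 and 6196 in Veh and 4970, 4235, 5084, 5489 and 5206 in sGC, so that the highest sGC animal lay just under the lowest Veh animal. With size factors the groups overlapped, since Veh SGM22, at 5109, lay below sGC SGM25 and SGM26, at 5439 and 5402. It was at −0.26 ± 0.08 (adjusted p = 0.235, limma). HDAC11, the class IV deacetylase, was at −0.33 ± 0.10 (adjusted p = 0.231) and SETDB1, which trimethylates H3K9, at −0.29 ± 0.10 (adjusted p = 0.282), both with overlapping groups.

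None of the remaining family extremes of F2 was called, and several had an SE larger than the value. The lowest were ARID5A at −0.36 ± 0.27, PRMT8 at −0.25 ± 0.12, SMARCE1 at −0.16 ± 0.08, KDM5B at −0.12 ± 0.09, KAT5 at −0.10 ± 0.09 and CHD3 at −0.08 ± 0.10. The highest were KAT6A at 0.11 ± 0.10, KDM3A at 0.10 ± 0.09, SIRT6 at 0.08 ± 0.19, HDAC10 at 0.07 ± 0.14, SMARCA1 at 0.07 ± 0.08, SETD8, which monomethylates H4K20, at 0.05 ± 0.17, CHD7 at 0.05 ± 0.13, ARID5B at −0.01 ± 0.07 and PRMT2 at −0.04 ± 0.07. Every arginine methyltransferase and every ARID protein had a negative F2 value as deposited, 4 of the 8 and 5 of the 7 with size factors.

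Oligodendrocyte markers had lower values in the same F2 sGC animals. All 11 were negative (median −0.78) and 10 of the 11 did not overlap between the groups. Their summed level was 96820, 153819, 95831, 79072 and 100248 normalised counts in the Veh animals and 57827, 41203, 62128, 57630 and 69178 in the sGC animals, in the order given for SIRT2. The animal with the highest SIRT2, Veh SGM23, also had the highest sum, and the animal with the lowest SIRT2, sGC SGM24, the lowest. With size factors SGM24 still had the lowest sum (46970), but the lowest SIRT2 was in sGC SGM21 (2119, against 2207 in SGM24). Precursor markers were at a median of −0.40 (6 of 7 negative), endothelial and mural markers at −0.32 (9 of 9) and PVN markers at 0.28 (8 of 9 positive). None of these marker genes was called. Whether cell composition accounts for the SIRT2 value was not tested.

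**Figure D3:**
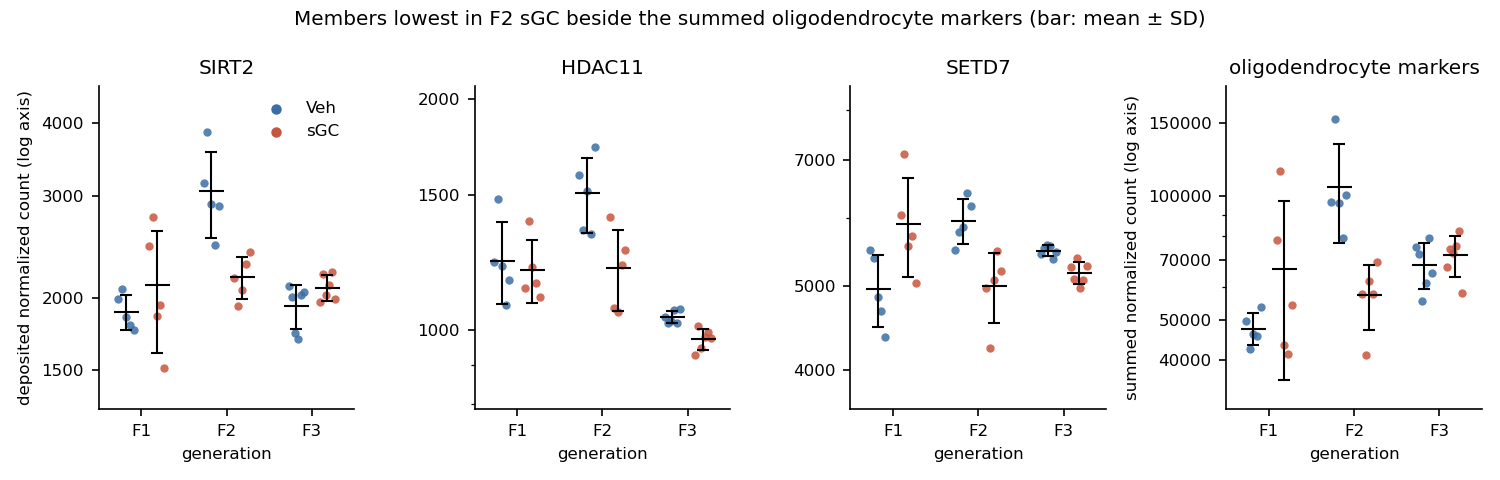
Normalised counts (log axis) of SIRT2, HDAC11 and SETD7, and the summed counts of the oligodendrocyte markers (log axis), in every animal by generation, with group mean and SD. The F2 sGC animals (SIRT2 1936 to 2393, marker sum 41203 to 69178) lie below all F2 Veh animals in SIRT2, SETD7 and the marker sum as deposited, and with size factors the SETD7 groups overlap. The sums are comparable within a generation only.

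In F3, 6 of 11866 genes were called (0.0506%, and 0.0421% with size factors), none of them among the 90 members. An unadjusted p under 0.05 was found for 14 members (15.6%, against 13.1% of all genes). The differences were small, and the spread between animals was too: the median within-group SD of the members was 0.0698 on the log2 scale. In F1 it was 0.189 as deposited, and lower with size factors, as given above. The authors' normalisation removed 2 directions in F3 and 1 in F1, and F3 was also adjusted for batch. The medians of the PVN and oligodendrocyte markers were −0.01 and 0.09.

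The member with the smallest F3 adjusted p was PRMT8, higher in sGC by 0.26 ± 0.07 on the log2 scale (limma adjusted p = 0.138). It read from 127 to 155 (median 132.5) in Veh and from 151 to 182 (median 162.5) in sGC, so that the lowest sGC animals lay inside the Veh range. HDAC11 read from 1022 to 1065 (median 1035) in Veh and from 928 to 1013 (median 976.5) in sGC, at −0.10 ± 0.03 (adjusted p = 0.172). KDM8, a JmjC-domain oxygenase, read from 676 to 702 in Veh and from 609 to 666 in sGC, at −0.09 ± 0.03 (adjusted p = 0.221). HDAC11 and KDM8 were the members without overlap in F3, beside 0.581% of all genes without overlap and higher and 0.632% without overlap and lower. SETD7 was at −0.08 ± 0.02 (adjusted p = 0.154) and KMT2A at −0.14 ± 0.05 (adjusted p = 0.216).

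The other family extremes of F3 were small too. The lowest were ARID3B at −0.28 ± 0.10, KDM7A at −0.20 ± 0.09, PRMT3 at −0.11 ± 0.05, CHD2 at −0.10 ± 0.05, SMARCA1 at −0.08 ± 0.05, KAT8 at −0.04 ± 0.04 and SIRT1 at −0.00439. The highest were SETD9 at 0.18 ± 0.09, SIRT2 at 0.11 ± 0.05, KAT2B at 0.09 ± 0.06, HDAC2, a partner of HDAC1 in nuclear corepressor complexes, at 0.08 ± 0.03, ARID5B at 0.05 ± 0.04, SMARCD3 at 0.05 ± 0.04, KDM5B at 0.03 ± 0.03 and CHD8 at 0.02 ± 0.03. None of them was called.

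The 5 genes called in F1 did not differ detectably in the later generations. KAT6A was at 0.11 ± 0.10 in F2 (limma adjusted p = 0.661) and at −0.04 ± 0.03 in F3 (adjusted p = 0.651). CHD2 was at −0.03 and −0.10, KDM6B at −0.05 and −0.05, KMT2E at −0.09 and −0.07 and KMT2C at −0.07 and −0.08 in F2 and F3, on the deposited scale. Of the 23 members higher in F1 with size factors, 20 were positive in F2 (87.0%, against 63.4% of all genes higher in F1) and 19 were negative in F3 (82.6%, against 73.1%), none of them called. Across the 90 members listed in both tables, the F1 and F3 log2 fold changes had a Spearman rho of −0.46 and a Pearson r of −0.48, and across all 11539 genes −0.21 and −0.20. Across 92 members the F1 and F2 values had a rho of 0.25 and an r of 0.29, against 0.00963 and −0.09 over 11612 genes. These are descriptions across genes of the same libraries, and genes are not independent replicates.

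**Figure D4:**
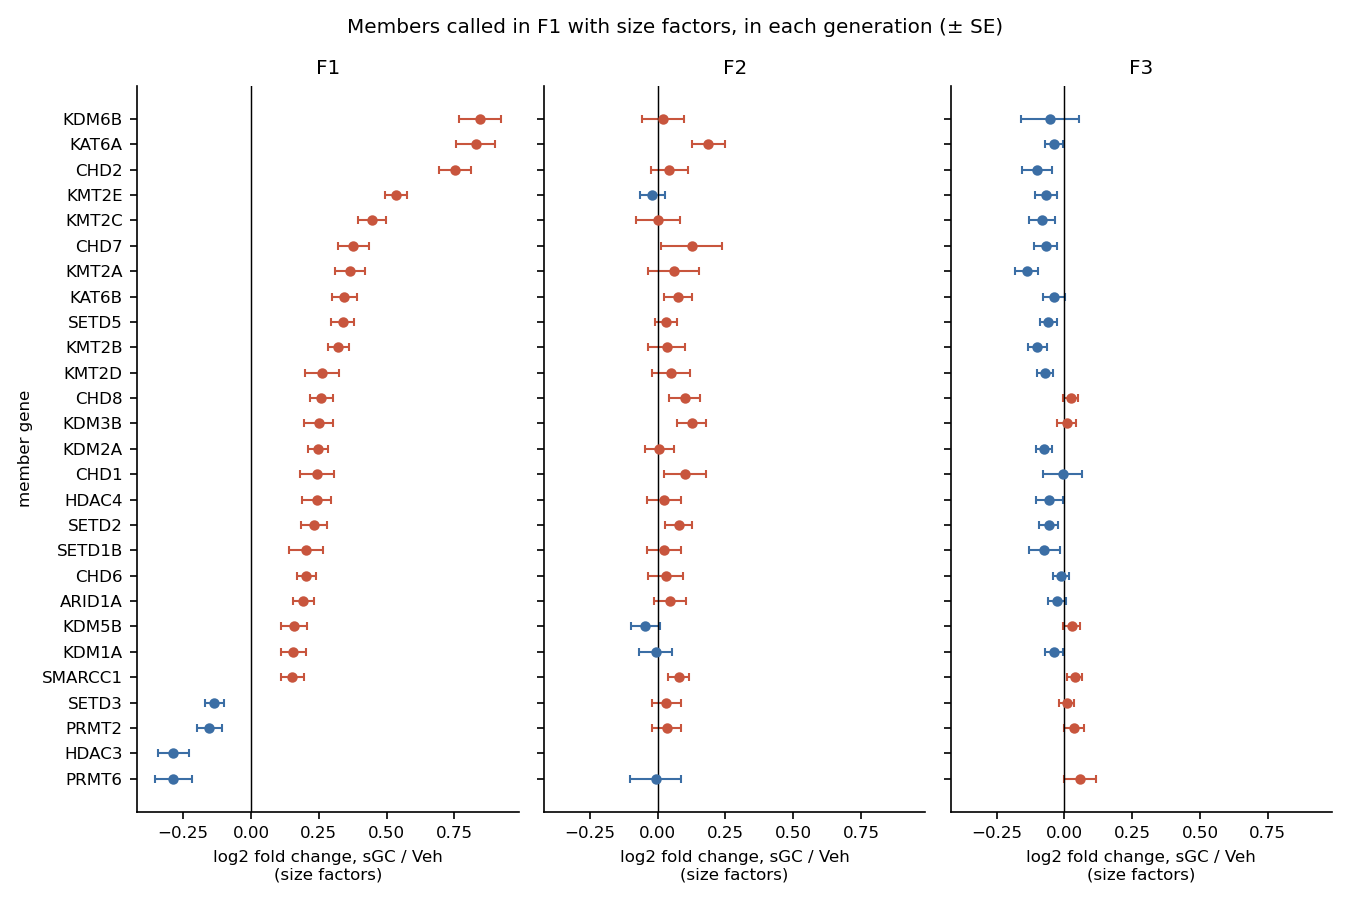
Log2 fold change (sGC over Veh, size factors) with its SE for the 27 members called in F1, in each generation, red for positive and blue for negative values. The F1 values run from −0.29 to 0.84, 20 of the 23 genes on the right in F1 stay slightly above 0 in F2, and 19 of the 23 fall slightly below 0 in F3. HDAC3 has no point in F2 and F3, where it is not listed.

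Whether the response differed between generations was tested directly on the 11429 genes present in all tables, 90 of them members. Between F1 and F2, 1.28% of genes had a more positive response in F1, and 4 members did: CHD2 by 0.85 ± 0.17 (SE, log2), KAT6A by 0.78 ± 0.16, KMT2E by 0.69 ± 0.14 and SETD7 by 0.50 ± 0.11, with adjusted p from 0.00959 to 0.0186 (limma). SETD7 combined a value of 0.25 in F1 with −0.26 in F2, neither of them called on its own. Its difference was not called in 4 of the 20 settings that left out an animal (adjusted p up to 0.0755, limma).

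Between F1 and F3, 1.46% of genes (167) and 10 members had a more positive response in F1, and 3 genes a more negative one. KDM6B was ahead by 0.96 ± 0.23, KAT6A by 0.93 ± 0.13, CHD2 by 0.92 ± 0.15, KMT2E by 0.66 ± 0.11 and KMT2C by 0.59 ± 0.13, and KMT2A, KMT2B, SETD5, KAT6B and KDM2A by 0.39 to 0.57 (adjusted p from 0.000211 to 0.0401). KAT6A, CHD2 and KMT2E differed from both later generations whichever animal was left out. For the others the call between F1 and F3 was lost in some of the 22 settings that left out an animal. It was lost in 11 for KAT6B, 9 for KDM2A, 8 for KMT2A, 7 for KDM6B, 6 for KMT2C, 5 for SETD5 and 4 for KMT2B (adjusted p up to 0.143, limma). With size factors, 11 members differed between F1 and F2 and 22 between F1 and F3 in the positive direction, beside 3.99% and 9.89% of all genes, and 8 members between F1 and F3 in the negative direction, beside 10.1%. Those 8 included PRMT8, PRMT6, PRMT2, SETD3 and HDAC2.

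Between F2 and F3, 0.525% of genes differed in either direction, 3 with a more positive response in F2 and 57 with a more negative one. SIRT2 was the one member, lower in F2 by a difference of −0.59 ± 0.13 (limma adjusted p = 0.0342). The call was lost with size factors (−0.52, adjusted p = 0.1003) and when F2 Veh SGM23, SGM27 or SGM29, F2 sGC SGM21, SGM24, SGM25 or SGM26, F3 Veh SGM9 or F3 sGC SGM_21 was left out (up to 0.116).

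Chromatin genes outside these symbols were read from lists of partner proteins, 126 of them tested in F1. One was called as deposited (0.794%, beside 0.657% of all genes), EP300, a transcriptional coactivator and acetyltransferase without a KAT symbol. It rose from 1037 ± 172 to 1580 ± 125 normalised counts (SD, n = 5 each), 0.62 ± 0.12 on the log2 scale (adjusted p = 0.0195, limma), with 879 to 1289 in Veh and 1376 to 1684 in sGC. With size factors 32 of the 126 were higher and 6 lower, 30.2% called beside 17.3% of all genes (8.47% higher and 8.86% lower). By list, 7 of 26 acetyltransferases and bromodomain readers were higher and 2 lower, 10 of 31 remodeller partners were higher and 1 lower, 6 of 18 methyltransferases and COMPASS partners were higher and 1 lower, 5 of 23 deacetylase corepressor partners were higher and 1 lower, 2 of 24 Polycomb partners were higher and 1 lower (12.5% called, under the share of all genes), and 2 of 6 further demethylases were higher. None of the partner genes was called in F2 or F3.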

How the data were processed

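PVN micropunches of 32 animals were profiled by mRNA sequencing. The deposited values are scores in the form of normalised counts: the authors aligned reads to cavPor3 with TopHat2, counted reads per gene with GenomicAlignments, removed outliers by Cook's distance, adjusted the F3 batches with ComBat, normalised by RUVSeq residuals, which lowers the spread between animals along the removed directions, and rounded to whole numbers. The deposited columns of the authors' own edgeR comparison (fold change, p-values) were not used, and 2 re-sequenced F3 Veh libraries are not analysed here. Because the values are not raw counts, depth per animal is not known and no count model was fitted.

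The sGC animals were compared with the Veh animals separately per generation, with limma 3.58.1 (R 4.3.3) on log2(value + 1) and no further scaling, genes with a mean of at least 10, eBayes with a trend, two-sided, Benjamini-Hochberg over all genes, called under 0.05. Fold changes are on the log2(value + 1) scale, which understates changes of low genes. The main fit does not allow for the directions removed by the authors' normalisation, 1 in F1, 1 in F2 and 2 in F3. Its p-values can therefore be too small. Adding median-of-ratios size factors was an alternative that is printed beside the first fit. For differences between generations, 6 group means were fitted on shared genes with one weight per generation (arrayWeights). One spread for all had been planned, and simulated data showed that it called too many unchanged genes. The single fits were tested on simulated data as well.

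The members and lists were chosen with earlier results of these data known. Named were members called, the smallest adjusted p under size factors, the largest rises and falls, family extremes (mean of at least 50) and genes differing between generations. Alternatives were total and quantile scaling, pseudocount 5, no filter or a mean of at least 50, no trend, F3 batch handling and leaving out each animal. Added after seeing the data were the removed directions as covariates, one spread for all generations, the header numbers as a block, and leaving out animals in the size-factor and difference fits. No sequence is printed, since none was used here. A gene of the marker lists is not reported here.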

Additional observations from a re-analysis of the deposited data

Results flagged for a closer look

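Listed here are the members whose response to sGC differed between generations by the direct test (limma with one weight per generation, adjusted over 11429 genes), each as a difference of log2 fold changes. Between F1 and F2 the response was more positive in F1 by 0.69 for KMT2E, 0.78 for KAT6A, 0.85 for CHD2 and 0.50 for SETD7. Between F1 and F3 it was more positive in F1 by 0.93 for KAT6A, 0.92 for CHD2, 0.66 for KMT2E, 0.48 for KMT2B, 0.46 for SETD5, 0.59 for KMT2C, 0.96 for KDM6B, 0.57 for KMT2A, 0.39 for KDM2A and 0.45 for KAT6B. Between F2 and F3 SIRT2 was lower in F2, at −0.59. Among all genes the same directions prevailed, with 146 positive and 0 negative calls for F1 minus F2. For F1 minus F3 they were 167 and 3, and for F2 minus F3 they were 3 and 57. Of all these differences, only those of KAT6A, CHD2 and KMT2E stayed called whichever animal was left out. In F1, markers of PVN neuroendocrine neurons had negative values in 9 of 9 genes, each with overlapping groups. The sums of sGC SGM12 and SGM16, 156892 and 197398, lay inside the Veh range. In F2 the oligodendrocyte markers were lower in 11 of 11. The part of these markers in the differences between generations was not tested. Single animals were looked for in 60 groups, those of the 9 members that were called or did not overlap between groups in any generation, and of the median of the members, and none stood apart from its group, where chance gives about 3.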

How the results depend on the processing

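Scaling mattered most. Genes called in F1 numbered 78 as deposited, 2058 with size factors, 1943 after scaling to the sample total, 2084 after quantile normalisation and 30 without the eBayes trend, and members called numbered 5, 27, 26, 28 and 3. Quantile normalisation moved the F1 median of the members relative to all genes from 0.0276 to 0.0435, and scaling to the total moved the F2 median of the members to 0.0369. Genes called in F2 numbered 42 after quantile normalisation and 17 at a mean of at least 50. Genes called in F3 numbered 10 without the trend, 1 with the removed directions as covariates, 2 in the first batch alone and 3 with batch as a covariate. Members that differed between F1 and F2 numbered 4, and 11 with size factors and 13 with one spread. Between F1 and F3 they numbered 10, and 30 with size factors. Between F2 and F3 the 1 member became 0 with size factors, without the trend and with one spread. With size factors 39 of the 92 members turned from negative to positive in F2 and 13 of the 94 from positive to negative in F1, none in F3, since the scaling shifts all genes together. Of the named members whose value exceeded its SE in either fit, the F2 sign turned for HDAC2 (0.0735 with size factors, 0.0833 by total), ARID5B (0.0744 by total), CHD4 (0.00699 by total, 0.0226 by quantile) and SETD5 (0.0393 by total, 0.0420 by quantile), none of them called. The cause of these changes was not tested.

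Leaving out one animal gave 15 (without Veh SGM15) to 474 (without Veh SGM7, the F1 library with the largest total) genes and 3 to 13 members called in F1, and a relative median of 0.016 to 0.052. Without sGC SGM12 or SGM20 the F1 genes numbered 151 and 133, without Veh SGM11 or SGM19 24 and 29, and 3 members were called without Veh SGM11, SGM15 or SGM19. In F2 it gave 0 to 114 genes (114 without Veh SGM28, 86 without Veh SGM22, 23 without sGC SGM30) and 0 to 1 members, and in F3 1 to 15 genes. Members that differed numbered 3 to 20 between F1 and F2, 3 to 21 between F1 and F3 and 0 to 2 between F2 and F3. With size factors, 18 to 26 members were called in F1. The column headers number the animals within each group, and the labels do not say that a number pairs animals. Same-numbered animals deviated together, at a correlation over 0.1, in 1 of 5 pairs in F1, 1 of 5 in F2 and 2 of 6 in F3, so the numbers were not used as pairs. With them as a replicate block, chosen after seeing the data, 146 genes were called in F1, 6 in F2 and 0 in F3, with 5 members in F1 (17 with size factors) and none later. With 5 or 6 animals a group, and no depth per animal, small changes of members may go undetected. On the deposited scale this holds for F1 more than for F3.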

Other observations

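Set side by side, and with the caution that the 3 tables were normalised separately, the F1 Veh animals held the lowest group mean of 4 of the 5 genes called in F1. For KAT6A the Veh and sGC means were 677 and 1235 (F1), 853 and 922 (F2), 1201 and 1169 (F3) normalised counts. For CHD2 the Veh and sGC means were 416 and 723 (F1), 599 and 588 (F2), 649.8 and 604 (F3). For KDM6B the Veh and sGC means were 177 and 331 (F1), 309 and 299 (F2), 199.8 and 191 (F3). For KMT2E the Veh and sGC means were 986 and 1484 (F1), 1336 and 1256 (F2), 1200.2 and 1145 (F3). KMT2C was the exception, with Veh and sGC means of 2426 and 3438 (F1), 3019 and 2892 (F2), 2165 and 2040.3 (F3). The 5 genes were picked because F1 Veh was below F1 sGC, which by itself favours a low F1 Veh mean. The same count over all genes was not made. No test was made across tables.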
